A study of Mus musculus with 51 samples.

Results

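The genes described here are 45 cell cycle genes of the mouse, 20 that act in S phase, when DNA is copied, and 25 that act in mitosis, when the copies are separated. The rule that defines them uses names and no measured value, and all 45 were found in both RNA-seq data sets of mouse femurs, among 23289 uniquely named genes with RPKM values (read counts scaled to the length of the gene and to sequencing depth) and 25938 genes with normalized counts. All 45 passed the filters on low values, by which 12571 and 16780 genes were tested. In the vitamin C (VitC) experiment, 9 libraries came from femurs of C57BL/6 mice killed at 20 weeks of age, with 3 libraries per group. WT mice make their own VitC. Gulo-/- mice carry the tm1Mae allele of Gulo, the enzyme of the last step of VitC synthesis, and drank water with 3.3 g/L VitC either until week 20 (VitC+) or until week 15, followed by 5 weeks without VitC (VitC+/-). In the Tet experiment, 12 libraries came from femurs of 11 week old mice. All of these mice, the Ctrl mice included, carried Prrx1-Cre, a Cre recombinase that is active in the mesenchyme of the limb buds and its descendants. Ctrl mice had unaltered Tet genes, while Tet1 cKO, Tet2 cKO and Tet1/2 cKO mice were homozygous for floxed Tet1, floxed Tet2 or both, so that cells outside this lineage, such as blood cells, keep the genes. Tet enzymes oxidize 5-methylcytosine in DNA to 5-hydroxymethylcytosine (5hmC) and use VitC as a cofactor. The femurs had been flushed, but markers of mature neutrophils still summed to a scaled RPKM of at least 6427 in every library of the VitC experiment, so the RNA is that of a mixture of bone and marrow cells. In such bulk samples a smaller number of dividing cells cannot be told apart from less RNA of these genes per cell.

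Cells that divide switch on the S phase and mitosis genes in waves. At the start of S phase, cyclin E and the E2F factors turn on the genes that load the MCM helicase onto origins of replication and that make nucleotides. Later, the DREAM complex and FOXM1 control genes of mitosis through a short promoter element named CHR, often with CCAAT boxes nearby. In the marrow, most dividing cells are precursors of red cells, granulocytes and B cells, while mature neutrophils, osteocytes and resting bone surfaces hold few cells in cycle.

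These libraries differed in ways that touch the values below. Recovered depth ranged from 7572842 reads in WT replicate 1 to 47336779 in VitC+/- replicate 3 in the VitC experiment, and from 28597536 to 49788434 in the Tet experiment. Gulo had a scaled RPKM of 0.543, 0.438 and 0 in WT, of 0.242, 0.0336 and 0.0271 in VitC+ and of 0.0123, 0.0134 and 0.0177 in VitC+/-. The library labelled WT replicate 3 lacked Gulo reads altogether, and the Gulo-/- library labelled VitC+ replicate 1 held more of them than the others of its group. In the Tet experiment, whose mice make VitC, normalized counts of Gulo were 0 to 4.06 in Ctrl and 0 throughout Tet2 cKO and Tet1/2 cKO. Gulo values thus do not settle whether these labels hold, and counts are also given without this pair. Normalized counts of Tet1 were 374 to 435 in Ctrl, 532 to 773 in Tet1 cKO and 415 to 485 in Tet1/2 cKO, and those of Tet2 were 2236 to 2512 in Ctrl, 1834 to 2245 in Tet2 cKO and 1851 to 2970 in Tet1/2 cKO. Reads over the whole gene do not test the loss of an exon, so these values do not check the labels. The labels do not tie libraries to mice. The study describes the VitC femur groups as independent animals, and where this does not hold p-values measure only the spread between libraries.

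The promoters were searched for sequences known from cell cycle genes. RefSeq promoters (GRCm38.p6, 250 bases before to 50 after the start of the gene) were given for 36 of the 45 genes and 8740 of the genes tested in the VitC experiment. An E2F-type sequence (TTTCGCGC, TTTGGCGC or TTTCCCGC on either strand, which can overlap) was present in 6 of 16 S phase promoters, in 1 of 20 mitosis promoters and in 3.66% of all promoters. A CHR sequence (TTTGAA or TTTAAA on either strand) was present in 7 of 16 S phase promoters, in 18 of 20 mitosis promoters and in 18.7% of all. The pair of a CHR and a CCAAT box, which lies on either strand too, was present in 5 of 16 S phase promoters, in 17 of 20 mitosis promoters and in 7.54% of all. A match describes the letters and does not show binding. The 150 bases before the RefSeq start site are printed for 8 of the 36 genes, 5′ to 3′ on the strand of the gene, with E2F-type, CHR and CCAAT matches of either strand in capitals. Mcm5 (chr8:75109359-75109508, plus strand) and Mcm6 (chr1:128359706-128359855, minus strand) encode subunits of the MCM helicase and show the E2F type.
Mcm5: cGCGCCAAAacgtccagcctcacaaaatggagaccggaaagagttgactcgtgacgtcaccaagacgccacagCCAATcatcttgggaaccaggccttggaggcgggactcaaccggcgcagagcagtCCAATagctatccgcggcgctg
Mcm6: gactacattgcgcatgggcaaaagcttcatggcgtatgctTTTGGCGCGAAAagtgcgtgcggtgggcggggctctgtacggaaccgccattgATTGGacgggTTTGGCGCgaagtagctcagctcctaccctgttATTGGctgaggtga
Top2a (chr11:99024190-99024339, minus strand), the topoisomerase that untangles sister chromatids, Ube2c (chr2:164769779-164769928, plus strand), the ubiquitin-conjugating enzyme of the anaphase-promoting complex, and Cdk1 (chr10:69352913-69353062, minus strand), the kinase that drives entry into mitosis, show the type with CHR and CCAAT, and Cdk1 has an E2F-type match as well. In Top2a and Ube2c, CCAAT boxes lie before the CHR.
Top2a: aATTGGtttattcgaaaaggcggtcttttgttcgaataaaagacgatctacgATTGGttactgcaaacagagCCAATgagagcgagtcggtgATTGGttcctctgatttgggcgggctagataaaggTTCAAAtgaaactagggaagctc
Ube2c: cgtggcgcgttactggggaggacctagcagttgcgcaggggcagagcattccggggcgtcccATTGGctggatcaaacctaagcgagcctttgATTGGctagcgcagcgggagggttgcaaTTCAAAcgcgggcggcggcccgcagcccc
Cdk1: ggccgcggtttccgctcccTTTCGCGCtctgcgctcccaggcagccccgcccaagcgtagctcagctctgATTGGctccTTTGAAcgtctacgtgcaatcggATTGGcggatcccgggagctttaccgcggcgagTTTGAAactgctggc
Ccne1 (chr7:38107491-38107640, minus strand), Cdt1 (chr8:122567865-122568014, plus strand) and E2f8 (chr7:48881597-48881746, minus strand) are the S phase genes with the largest differences between VitC+/- and VitC+. E2f8 has a CHR and a CCAAT box, Ccne1 a CHR, and Cdt1 no match in these bases, although its 300 base promoter holds an E2F-type sequence.
Ccne1: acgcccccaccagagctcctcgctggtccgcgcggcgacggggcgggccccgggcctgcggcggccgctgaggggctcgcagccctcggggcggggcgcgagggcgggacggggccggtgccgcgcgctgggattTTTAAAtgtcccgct
Cdt1: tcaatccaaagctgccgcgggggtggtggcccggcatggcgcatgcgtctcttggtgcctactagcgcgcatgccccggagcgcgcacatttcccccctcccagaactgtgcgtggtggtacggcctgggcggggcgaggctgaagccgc
E2f8: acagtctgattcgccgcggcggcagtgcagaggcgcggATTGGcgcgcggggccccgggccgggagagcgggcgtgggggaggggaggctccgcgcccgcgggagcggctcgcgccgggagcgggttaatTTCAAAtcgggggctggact

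In the VitC experiment, every one of the 45 genes was measured in all 9 libraries, at levels per length that spanned a wide range. Pcna, the sliding clamp of DNA polymerases, was the highest, with a scaled RPKM between 112 and 228 and a median of 147. Ube2c followed with 59.6 to 161, then Rrm2, the regulated subunit of ribonucleotide reductase, with 51.0 to 112, and Mki67, the proliferation antigen Ki-67, with 38.0 to 101. WT replicate 2 was the highest of the 9 libraries for 37 of the 45 genes, and VitC+ replicate 1 the lowest for 27 and VitC+/- replicate 3 for 17. The genes therefore moved largely together from library to library, as the map of members by library shows. Averaged over the 45 genes as log2 differences from the VitC+ mean, the WT libraries stood at 0.24, 0.93 and 0.65, the VitC+ libraries at -0.22, 0.22 and 0.005 and the VitC+/- libraries at 0.25, 0.22 and -0.12. WT replicate 1, which was sequenced least deeply, thus lay at the level of the higher VitC+ and VitC+/- libraries.

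**Figure D1:**
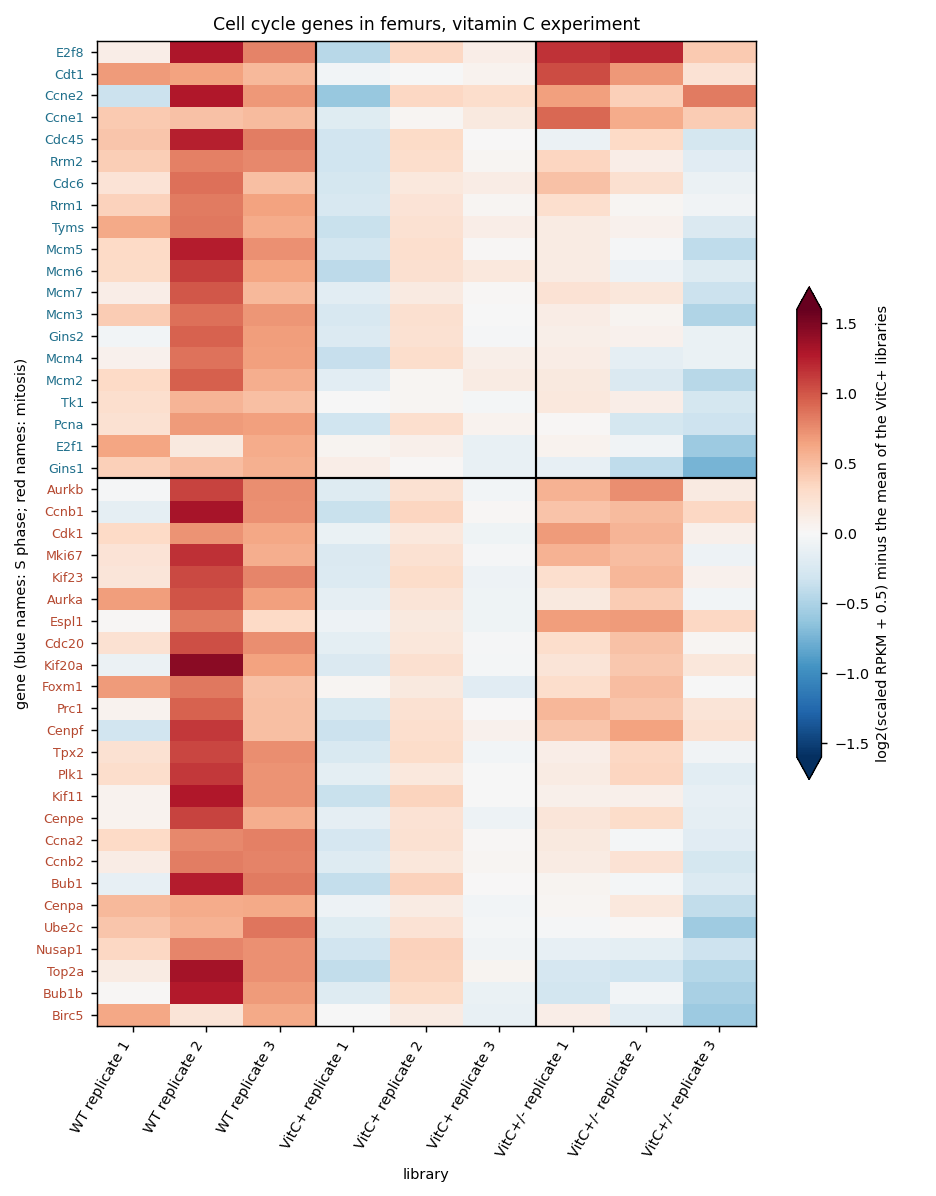
Each cell gives log2(scaled RPKM + 0.5) of a gene in a library minus the mean of the 3 VitC+ libraries, with the 20 S phase genes above and the 25 mitosis genes below the line. WT replicate 2 is the darkest red column, highest for 37 of the 45 genes, while E2f8, Cdt1, Ccne2 and Ccne1 in the top rows are also red in VitC+/-.

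The comparison of VitC+/- with VitC+ asks what 5 weeks without VitC changed in Gulo-/- femurs. The median log2 fold change of the 45 genes was 0.03, close to the 0.01 of all genes tested, with -0.01 for S phase and 0.13 for mitosis. Of the 45, 26 lay above 0 and 19 below, against 50.4% and 49.6% of all genes tested. In limma with Benjamini-Hochberg adjustment, 2 of 45 genes (4.44%) rose and 0 fell, while 5.5% of all genes tested rose and 7.96% fell. The 2 calls, Ccne1 and Cdt1, are thus no more than the share of all genes and are given as values only. Ccne1, cyclin E1, which activates CDK2 before S phase (mm10 chromosome 7, 38097984 to 38107490), had a scaled RPKM of 8.43, 9.99 and 10.9 in VitC+, of 18.8, 14.9 and 13.1 in VitC+/- and of 13.2, 13.7 and 14.0 in WT. All 3 VitC+/- libraries lay above all 3 VitC+ libraries, whereas they overlapped those of WT. The log2 fold change on the RPKM + 0.5 scale was 0.64 ± 0.16 (SE; limma adjusted p = 0.0323). Cdt1, which loads the MCM helicase together with Cdc6 (chromosome 8, 122568015 to 122573130), had 16.0, 16.4 and 17.3 in VitC+, 34.5, 27.1 and 19.6 in VitC+/- and 26.9, 26.2 and 24.0 in WT. VitC+ was the low group here, below every library of the other 2 groups. Its log2 fold change was 0.66 ± 0.19 (SE; limma adjusted p = 0.0483).

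These 2 calls rest on few libraries. With any library of VitC+ left out, or VitC+/- replicate 1 or 2, or WT replicate 3 and VitC+ replicate 1 together, 0 of the 45 genes passed, and without VitC+/- replicate 3 there were 3. E2f8, an atypical E2F that represses E2F targets late in S phase, showed the largest difference, from 7.00, 12.3 and 10.5 in VitC+ to 22.2, 23.0 and 13.1 in VitC+/-, with 10.4, 24.4 and 17.2 in WT. The VitC+/- and VitC+ libraries did not overlap, but the log2 fold change of 0.93 ± 0.33 (SE) missed the threshold (limma adjusted p = 0.0930). Ccne2, cyclin E2, did not overlap either, at 1.43, 3.19 and 3.07 in VitC+ and 4.15, 3.32 and 4.73 in VitC+/- (log2 fold change 0.62 ± 0.40 SE, limma adjusted p = 0.321). Among mitosis genes the largest differences were those of Espl1 and Aurkb. Espl1, separase, which cuts cohesin at anaphase, had 4.83, 5.78 and 4.91 in VitC+ and 8.51, 8.58 and 6.60 in VitC+/-, with no overlap (log2 fold change 0.56 ± 0.21 SE, limma adjusted p = 0.108). Aurkb, the kinase of the chromosomal passenger complex, had 15.8, 21.7 and 17.6 in VitC+ and 26.998, 30.9 and 20.2 in VitC+/-, where a VitC+ library lies within the VitC+/- range (0.48 ± 0.28 SE, limma adjusted p = 0.270). In the other direction only Gins1, a subunit of the GINS complex of the replicative helicase, did not overlap, with 13.5, 12.6 and 11.4 in VitC+ and 11.4, 9.32 and 7.25 in VitC+/- (-0.42 ± 0.17 SE, limma adjusted p = 0.118), and the closest libraries of these groups differ by less than the printed digits. In all, 5 genes were higher and 1 lower without overlap, against 20.5% and 20.1% of all genes tested, so the shares of the 45 genes were below those of all genes.

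The other S phase genes differed little between VitC+/- and VitC+. The 6 MCM genes, Mcm2 to Mcm7, had log2 fold changes between -0.17 and 0.03, and the nucleotide genes Rrm1, Rrm2, Tyms and Tk1 between -0.01 and 0.09. Mcm2 had a scaled RPKM of 21.5, 24.6 and 26.6 in VitC+ and of 27.1, 20.4 and 17.6 in VitC+/-, with broad overlap. Tyms, thymidylate synthase, had 4.47, 7.04 and 6.33 against 6.42, 6.16 and 4.90. Cdc6 had 4.25, 5.99 and 5.77 against 7.51, 6.38 and 4.90, and Rrm2 51.0, 77.9 and 65.1 against 81.0, 68.8 and 56.2. In each of these genes VitC+/- replicate 3 lay lowest of the VitC+/- libraries and VitC+ replicate 1 lowest of the VitC+ libraries. A p that misses the threshold does not show that the levels were equal, and the SE of these log2 fold changes was 0.15 to 0.25.

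The comparison of VitC+/- with WT sets mice without VitC against mice that make it, and here the cell cycle genes were lower. These mice also differ in Gulo genotype, so genotype and lack of VitC cannot be told apart in this comparison. Of the 45 genes, 39 had a log2 fold change below 0 and 6 above, against 49.1% and 50.9% of all genes tested, the median was -0.56 against 0.01 for all genes, and 18 fell with 0 that rose (limma, Benjamini-Hochberg). This is 40% of the 45 genes, against 15.7% of all genes tested that fell and 15.3% that rose. Groups did not overlap for 20 genes, 44.4% of them, against 21.3% of all genes tested. The 10 S phase and 8 mitosis genes that fell make up 50% and 32% of their classes, and the medians of the classes were close, at -0.57 and -0.55. Both this comparison and the one above use the same VitC+/- libraries.

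Helicase and nucleotide genes made up most of the S phase genes that fell. Gins1 had a scaled RPKM of 16.4, 17.7 and 18.8 in WT and of 11.4, 9.32 and 7.25 in VitC+/-, a log2 fold change of -0.90 ± 0.17 (SE; limma adjusted p = 0.00468). Mcm5 had 35.4, 67.8 and 46.9 in WT and 30.9, 27.7 and 21.1 in VitC+/- (-0.87 ± 0.25 SE, limma adjusted p = 0.0285). Mcm2 had 30.2, 47.2 and 36.4 in WT, against the values given above (-0.79 ± 0.20 SE, limma adjusted p = 0.0177). In these genes every WT library was above every VitC+/- library, and the MCM genes Mcm3 and Mcm6 fell too, by 0.77 and 0.74, while Mcm4 at -0.57 and Mcm7 at -0.52 did not pass. Cdc45, the partner of MCM and GINS in the active helicase, fell by 0.85 on the log2 scale. Pcna had 168, 228 and 224 in WT and 144, 117 and 112 in VitC+/- (-0.72 ± 0.19 SE, limma adjusted p = 0.0215). Tyms had 9.19, 10.9 and 9.04 in WT (-0.70 ± 0.19 SE, limma adjusted p = 0.0218) and Rrm1, the large subunit of ribonucleotide reductase, fell by 0.54. E2f1, an activating E2F, had 22.2, 15.9 and 21.6 in WT and 14.7, 13.6 and 9.34 in VitC+/- (-0.65 ± 0.20 SE, limma adjusted p = 0.0331). Rrm2, at 83.5, 112 and 109 in WT, did not overlap but missed the threshold (-0.56 ± 0.20 SE, limma adjusted p = 0.0601), and so did Tk1, thymidine kinase 1 (-0.43, limma adjusted p = 0.0506).

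The 4 S phase genes that did not lie below WT were those highest in VitC+/- relative to VitC+. Against WT, E2f8 had a log2 fold change of 0.20 ± 0.33 (SE), Ccne1 of 0.17 ± 0.16, Ccne2 of 0.08 ± 0.40 and Cdt1 of 0.04 ± 0.19, and their libraries overlapped those of WT. Cdc6, with 6.25, 10.1 and 7.60 in WT, lay between these and the helicase genes at -0.32 ± 0.22 (SE, limma adjusted p = 0.295).

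Among mitosis genes, Top2a showed the largest fall of the 45. It had a scaled RPKM of 49.7, 114 and 75.2 in WT, of 34.2, 57.9 and 46.6 in VitC+ and of 37.4, 36.3 and 32.7 in VitC+/-, a log2 fold change against WT of -1.08 ± 0.29 (SE; limma adjusted p = 0.0203). The WT libraries were spread widely, and all were above those of VitC+/-. Bub1b, the checkpoint protein BubR1, fell by 0.94, from 13.4, 32.8 and 21.6 in WT to 10.8, 12.9 and 9.10 in VitC+/- (limma adjusted p = 0.0367). Nusap1, a spindle protein, fell by 0.82 and Ube2c by 0.81, from 121, 130 and 161 to 87.0, 89.6 and 59.6 in the latter. Birc5, survivin, had 44.1, 32.9 and 43.5 in WT and 30.7, 25.3 and 18.8 in VitC+/- (-0.69 ± 0.19 SE, limma adjusted p = 0.0249). Ccna2, cyclin A2, had 48.7, 66.7 and 68.5 in WT and 43.6, 38.1 and 34.3 in VitC+/- (-0.65 ± 0.18 SE, limma adjusted p = 0.0264). For both genes all WT libraries were the higher ones. Cenpa, the centromeric histone, fell by 0.63 and Aurka, the spindle pole kinase, by 0.60.

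Mitosis genes in the middle of the list overlapped between VitC+/- and WT. Mki67 had 52.1, 101 and 67.0 in WT, 38.0, 53.3 and 44.4 in VitC+ and 66.2, 63.3 and 42.4 in VitC+/- (-0.33 ± 0.26 SE against WT, limma adjusted p = 0.368). Plk1, polo-like kinase 1, had 18.3, 33.4 and 24.9 in WT, 13.4, 16.9 and 14.8 in VitC+ and 16.5, 19.1 and 13.3 in VitC+/- (-0.61 ± 0.22 SE, limma adjusted p = 0.0641). In both genes WT replicate 2 was the highest library. Cdc20, the activator of the anaphase-promoting complex, had 29.0, 50.7 and 41.2 in WT, 21.8, 27.7 and 24.2 in VitC+ and 29.9, 34.1 and 25.1 in VitC+/-. Foxm1, the transcription factor of the G2 phase, had 16.1, 18.0 and 13.8 in WT, 10.0, 11.0 and 8.57 in VitC+ and 12.03, 14.0 and 9.82 in VitC+/-. Both had a log2 fold change of -0.41 against WT and did not pass (limma adjusted p = 0.162 and 0.0973). Ccnb1, cyclin B1, and Cdk1, its kinase, lay closer to WT than these. Ccnb1 had 16.1, 45.4 and 30.1 in WT, 13.8, 22.8 and 18.2 in VitC+ and 24.9, 25.7 and 22.7 in VitC+/- (-0.20 ± 0.33 SE against WT). Cdk1 had 33.1, 43.9 and 41.0 in WT, 24.7, 29.9 and 25.3 in VitC+ and 42.8, 39.0 and 28.1 in VitC+/- (-0.11 ± 0.18 SE against WT). For Aurkb, with 18.0, 39.1 and 30.9 in WT, the value was -0.12 ± 0.28 (SE), and for Espl1 0.17 ± 0.21.

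**Figure D2:**
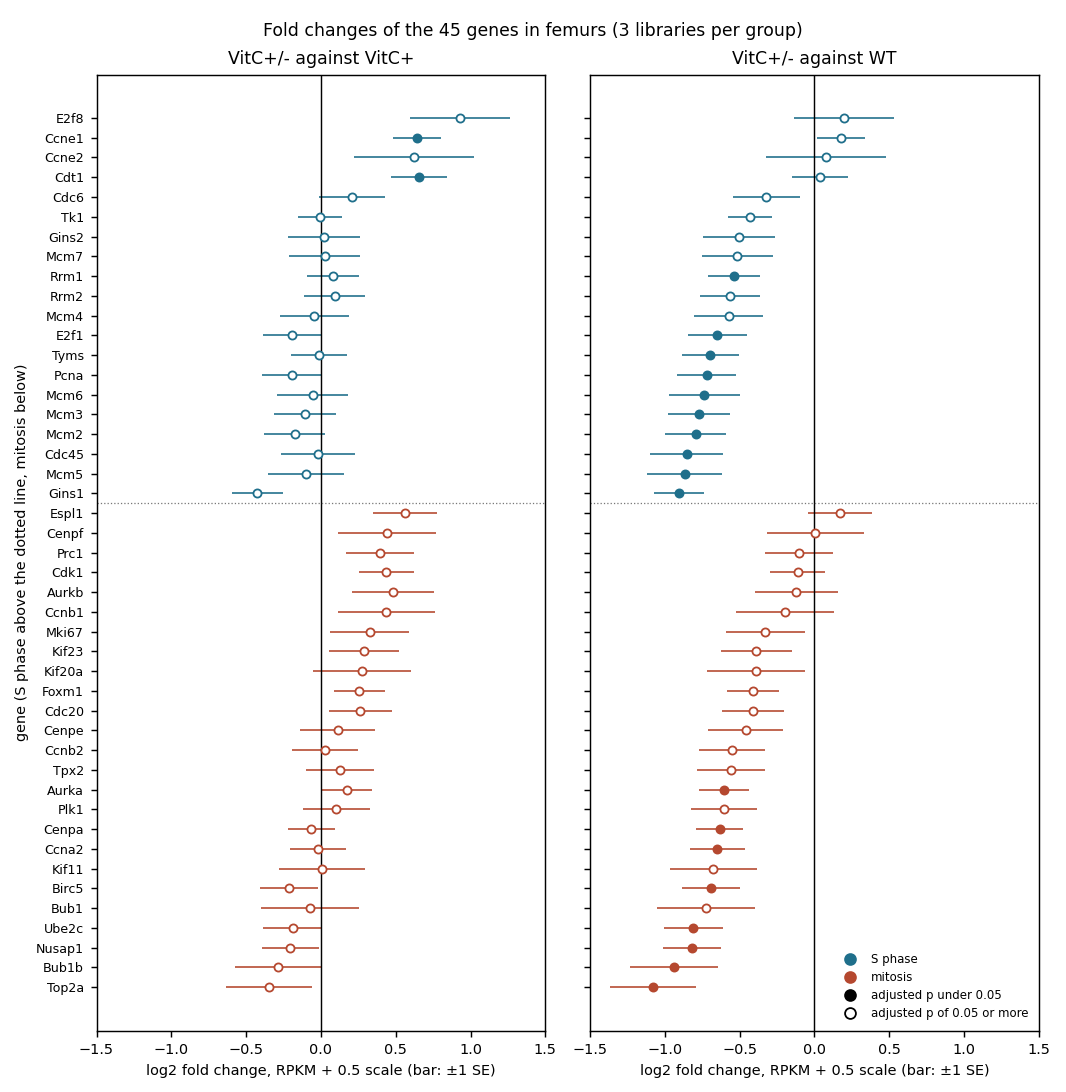
Points give the limma log2 fold change of each of the 45 genes on the RPKM + 0.5 scale with bars of 1 SE, VitC+/- against VitC+ on the left and against WT on the right, filled where the adjusted p was under 0.05. On the left 2 points are filled, Ccne1 at 0.64 and Cdt1 at 0.66, and on the right 18 points are filled, all below 0, with Top2a lowest at -1.08.

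The number of genes that fell against WT depended on single libraries. It was 30 without WT replicate 1, 8 without WT replicate 2, 2 without WT replicate 3, 12, 14 and 4 without VitC+/- replicate 1, 2 and 3, and 2 without WT replicate 3 and VitC+ replicate 1. Gins1 passed under all 16 alternatives, with limma adjusted p between 0.00433 and 0.0425, and none of the 18 genes changed direction under any of them. Without scaling of the RPKM values 1 gene fell, against 1151 of all 12571 genes tested. Of all genes tested, 1169 of 12516 fell without WT replicate 3 and 1513 of 12422 without VitC+/- replicate 3. Without WT replicate 3 and VitC+ replicate 1 together, 845 of 12453 fell. In these settings the share of cell cycle genes that fell was below that of all genes tested. With WT replicate 1 or 2, or VitC+/- replicate 1 or 2, left out, the share of cell cycle genes was the higher one.

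WT and VitC+ mice both had VitC to the end, from their own synthesis or from the water, and they differ in Gulo genotype. All 45 genes were higher in WT than in VitC+, with log2 fold changes from 0.39 for Espl1 to 0.83 for Cdc45 and a median of 0.62, against 0.02 for all genes tested, of which 52.6% lay above 0 and 47.4% below. In limma, 0 of the 45 genes and 0% of all genes tested passed the adjusted threshold in either direction. At an unadjusted p under 0.05, 34 of the 45 genes were higher in WT, against 8.71% of all genes tested. The groups did not overlap for 23 genes, 51.1% of them, against 13.4% of all genes tested. Cdc45 had a scaled RPKM of 18.0, 31.6 and 23.5 in WT and of 10.5, 16.2 and 13.2 in VitC+ (0.83 ± 0.24 SE, limma adjusted p = 0.122). Aurka had 28.1, 35.8 and 27.8 in WT and 15.9, 20.2 and 16.7 in VitC+ (0.78 ± 0.17 SE, limma adjusted p = 0.0777). In both genes all WT libraries lay above all VitC+ libraries, and Aurka had the lowest adjusted p of the 45. Mcm5, with 22.9, 34.1 and 28.6 in VitC+, did not overlap with WT either (0.77 ± 0.25 SE, limma adjusted p = 0.141), and Pcna, with 114, 171 and 147, overlapped in a single pair of libraries. The VitC+ values of Birc5 were 28.2, 31.3 and 26.0, those of Ccna2 32.4, 46.4 and 39.5 and those of E2f1 14.6, 15.0 and 12.97, all below WT. Without WT replicate 1, which was sequenced least deeply, 15 of the 45 genes passed as higher in WT, against 71 of the 12507 genes tested then. Without WT replicate 3 and VitC+ replicate 1, 0 passed, and all 45 remained above 0.

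S phase and mitosis genes kept in step within libraries. The S phase average minus the mitosis average of a library, both as mean log2 difference from VitC+, lay between -0.14 in VitC+/- replicate 2 and 0.10 in WT replicate 1, while the averages themselves spanned -0.24 to 0.86 for S phase and -0.21 to 0.99 for mitosis. Markers of marrow cells differed between the groups as well, in directions that varied by list. The 5 neutrophil precursor markers were Mpo, Elane, Prtn3, Ctsg and Ms4a3, and all but Ms4a3 encode granule proteins made by dividing precursors. They averaged 0.626, 1.61 and 1.198 in WT, -0.44, 0.55 and -0.12 in VitC+ and -0.45, 0.18 and -1.32 in VitC+/-. WT replicate 2 was the highest of the 9 libraries for these markers as it was for most of the 45 genes. All 5 fell in VitC+/- against WT (limma). Against VitC+, 0 of 5 passed in limma and 0 had an unadjusted p under 0.05, and between WT and VitC+ 0 of 5 passed and 5 had one. Their summed level was 3562 to 7045 in WT, 1669 to 3325 in VitC+ and 904 to 2544 in VitC+/-. The 8 mature neutrophil markers had summed levels of 50804 to 69480 in WT, 28936 to 44719 in VitC+ and 6427 to 22121 in VitC+/-, without overlap between the groups, and 8 fell in VitC+/- against WT and 4 against VitC+. B-cell precursor markers had summed levels of 59.0 to 195 in WT, 95.4 to 176 in VitC+ and 17.8 to 33.3 in VitC+/-, and 10 of 12 tested fell in VitC+/- in both comparisons. Erythroid markers went the other way, with sums of 322 to 417 in WT, 319 to 475 in VitC+ and 534 to 780 in VitC+/-, and 4 of 11 tested rose against VitC+ and 5 of 11 against WT. Osteoclast markers had sums of 776 to 843, 1901 to 2600 and 2918 to 6447 in this order, and osteoblast and osteocyte markers 1056 to 4068, 5652 to 11136 and 710 to 4487. Adipocyte markers had sums of 99.8 to 185, 176 to 397 and 299 to 2372, and 4 of 5 tested rose in VitC+/- against WT and 0 against VitC+. The part of these cells in the values of the cell cycle genes was not tested.

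**Figure D3:**
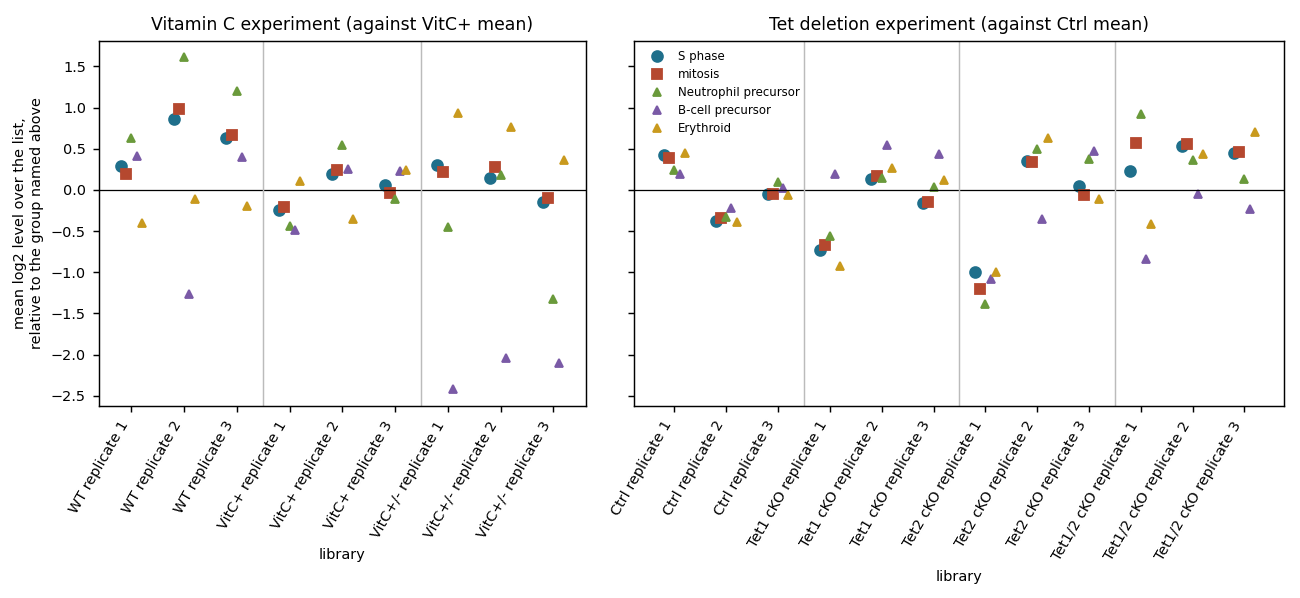
Each symbol is the mean over a gene list of the log2 level in a library minus the mean of the VitC+ libraries (left, 9 libraries) or the Ctrl libraries (right, 12 libraries), for S phase, mitosis and 3 lists of marrow cell markers. S phase and mitosis symbols lie close together in most libraries, with the highest pair in WT replicate 2 (0.86 and 0.99) and the lowest in Tet2 cKO replicate 1 (-0.996 and -1.21).

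Other genes of the cell cycle, from lists that do not hold the 45, are given by counts and medians. Of 24 further replication genes, 11 fell and 0 rose in VitC+/- against WT, with a median log2 fold change of -0.54, and of 28 further mitosis genes 12 fell and 0 rose, with a median of -0.52, against 15.7% of all genes tested that fell. Dut, which removes dUTP, fell by 0.82 (limma adjusted p = 0.00693) and Melk, a kinase of dividing cells, by 1.29 (limma adjusted p = 0.00112). Against VitC+, 1 of the 24 rose and 0 fell, and 1 of the 28 rose and 1 fell, where 5.5% of all genes tested rose and 7.96% fell, so these single calls are no more than the background share and are given as values only. The replication gene was Pole, the catalytic subunit of DNA polymerase epsilon, with a scaled RPKM of 2.07, 3.01 and 2.93 in VitC+ and 8.12, 6.62 and 4.64 in VitC+/- (log2 fold change 1.12, limma adjusted p = 0.0400). Mybl2, B-Myb, a factor that joins DREAM proteins to turn on mitosis genes, rose from 7.41, 8.27 and 8.58 to 20.5, 20.2 and 11.4 (1.01, limma adjusted p = 0.0301), and Melk fell from 5.08, 5.94 and 4.69 to 2.99, 3.04 and 3.26 (-0.67, limma adjusted p = 0.0308). For all 3 genes the groups did not overlap.

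A further list held inhibitors of cyclin-dependent kinases, the D cyclins and their partner kinases, the retinoblastoma family and other genes tied to cell cycle arrest, such as Btg1, Btg2 and Gadd45a. Of 22 tested, 1 rose and 0 fell in VitC+/- against VitC+, where 5.5% of all genes tested rose and 7.96% fell. Against WT 2 rose and 2 fell, where 15.3% of all genes tested rose and 15.7% fell, so in neither comparison did the list hold more calls than its size would give at the shares of all genes. Cdkn1a, the inhibitor p21, had a scaled RPKM of 13.5, 5.38 and 10.3 in WT, of 27.3, 17.8 and 24.1 in VitC+ and of 52.0, 50.5 and 43.0 in VitC+/-, without overlap between the 3 groups. Its log2 fold change was 1.07 against VitC+ (limma adjusted p = 0.0415) and 2.34 against WT (limma adjusted p = 0.00101). Cdkn2a, which encodes p16 and ARF, had 0.963, 0.0895 and 0.450 in WT, 0.826, 0.939 and 1.19 in VitC+ and 4.13, 1.74 and 11.2 in VitC+/- (2.40 against WT, limma adjusted p = 0.0103; 1.74 against VitC+, limma adjusted p = 0.0620). Cdkn2d, p19, fell from 66.7, 66.2 and 84.0 in WT to 38.5, 44.2 and 23.2 in VitC+/- (-1.07, limma adjusted p = 0.00804), and Ccnd3, cyclin D3, from 122, 132 and 152 to 83.7, 97.0 and 61.5 (-0.76, limma adjusted p = 0.0141). The cell cycle genes and the inhibitors come from the same mixed tissue, so these values do not say that they changed in the same cells.

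In the Tet experiment the same 45 genes moved together across 12 libraries, and the spread within groups was wide. The average log2 difference from the Ctrl mean was 0.40, -0.36 and -0.05 in Ctrl, -0.70, 0.15 and -0.15 in Tet1 cKO, -1.11, 0.35 and -0.01 in Tet2 cKO and 0.42, 0.54 and 0.46 in Tet1/2 cKO. Tet2 cKO replicate 1 was the lowest of the 12 libraries for 43 of the 45 genes. Of the Tet1/2 cKO libraries, replicate 1 was the highest for 14 genes, replicate 2 for 21 and replicate 3 for 2.

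**Figure D4:**
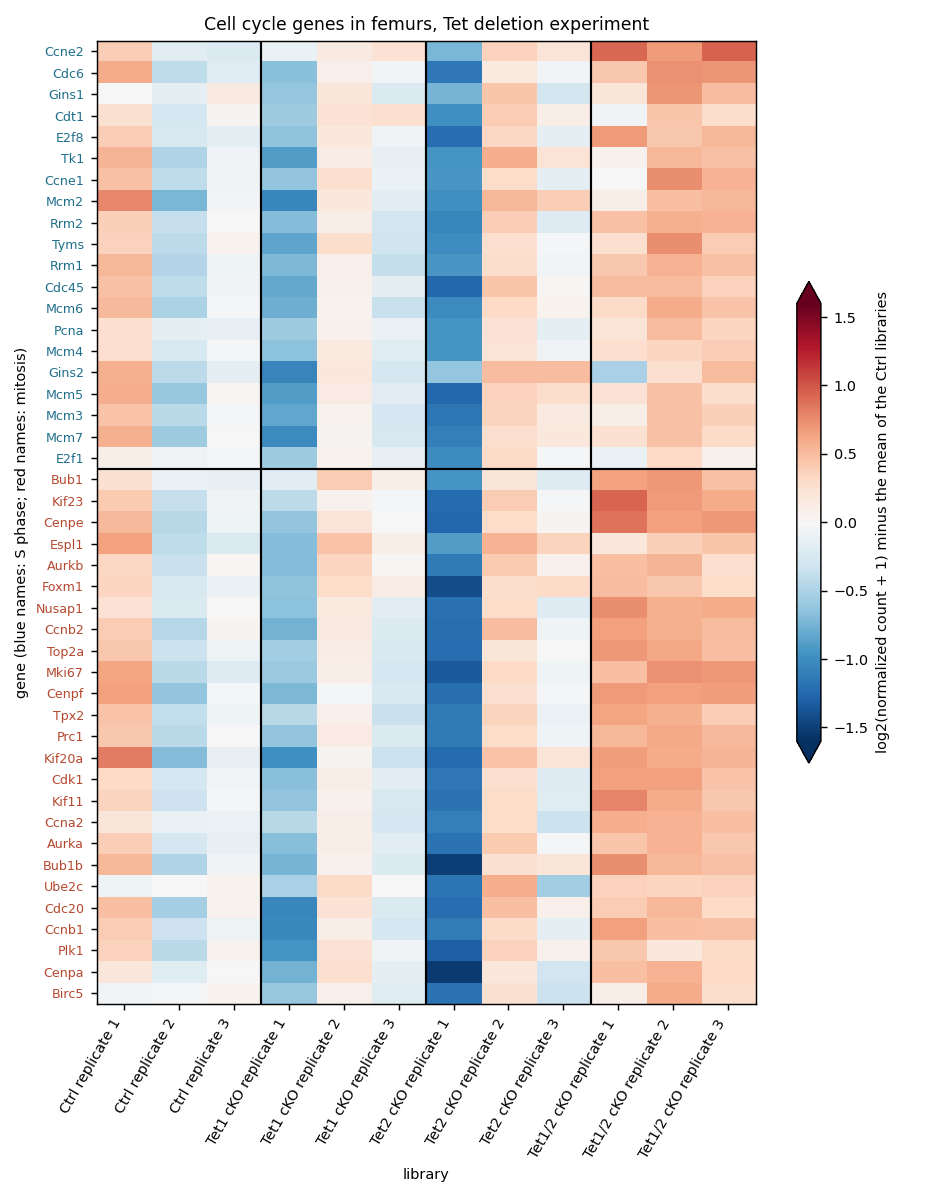
Each cell gives log2(normalized count + 1) of a gene in a library minus the mean of the 3 Ctrl libraries, for the 20 S phase genes above and the 25 mitosis genes below the line. The column of Tet2 cKO replicate 1 is blue for nearly every gene, with an average of -1.11, and the 3 Tet1/2 cKO columns are mostly red, with averages of 0.42 to 0.54.

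In Tet1/2 cKO, all 45 genes had a log2 fold change above 0 against Ctrl, while 49.2% of all genes tested lay above 0 and 50.8% below. The median was 0.47, with 0.40 for S phase and 0.56 for mitosis, against -0.01 for all genes. In limma, 0 of 45 genes and 0% of all genes tested passed the adjusted threshold, and at an unadjusted p under 0.05 there were 2, against 1.76% of all genes tested as higher. In edgeR and DESeq2 on recovered whole reads, 0 of 45 passed the adjusted threshold and 1 each had an unadjusted p under 0.05. The groups did not overlap for 19 genes, 4 of S phase and 15 of mitosis, 42.2% of the 45 against 7.37% of all genes tested. Ccne2 had normalized counts of 947, 641 and 609 in Ctrl and of 1363, 1153 and 1377 in Tet1/2 cKO, the largest difference of the 45 (0.85 ± 0.28 SE, limma adjusted p = 0.723). Bub1, a kinase of the spindle checkpoint, was the other gene under the unadjusted threshold, with 2854, 2232 and 2193 in Ctrl and 3777, 3884 and 3320 in Tet1/2 cKO (0.60 ± 0.26 SE, limma adjusted p = 0.723). In both genes every Tet1/2 cKO library was above every Ctrl library.

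Of the 25 mitosis genes, 15 showed the same order and 10 overlapped between the groups. Kif23, a kinesin of the midbody, had 5313, 3100 and 3851 in Ctrl and 7639, 6391 and 6038 in Tet1/2 cKO (0.74 ± 0.36 SE), and Cenpe, a kinesin of the kinetochore, had 6435, 3288 and 4271 against 8220, 7098 and 7288 (0.74 ± 0.38 SE). Top2a had 30631, 18013 and 21452 against 36868, 34936 and 31755, and Ccna2 9786, 7913 and 7995 against 12767, 12575 and 11879. Ccnb1 had 3792, 2268 and 2694 against 4482, 3977 and 3953, and Cdk1 7328, 4844 and 5707 against 9218, 9292 and 8088. None of these 6 genes overlapped between the groups, and Ctrl replicate 1 was the Ctrl library nearest to Tet1/2 cKO in each. Mki67 did overlap, with 83148, 39704 and 46398 in Ctrl and 74432, 89184 and 86552 in Tet1/2 cKO. So did Kif20a, with 4306, 1506 and 2224 in Ctrl and 3867, 3665 and 3560 in Tet1/2 cKO, where Ctrl replicate 1 was above all 3. So did Cdc20 with 4470, 2211 and 3312 against 4244, 4638 and 3981, Plk1 with 2433, 1403 and 1964 against 2543, 2116 and 2327, and Aurkb with 4141, 2578 and 3381 against 4598, 4798 and 3966. Foxm1 had 4289, 2852 and 3120 against 4760, 4549 and 4137, with overlap through Ctrl replicate 1, and Birc5 had 6881, 6988 and 7357 against 7625, 10676 and 8616, with none.

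Of the 20 S phase genes, 16 overlapped between Tet1/2 cKO and Ctrl, which was not tested against mitosis. Cdc6 had 5150, 2592 and 3003 in Ctrl and 4608, 5690 and 5575 in Tet1/2 cKO (0.62 ± 0.35 SE, limma adjusted p = 0.723), and E2f8 had 5934, 3793 and 4087 against 7225, 6082 and 6525 with no overlap. Ctrl replicate 1 was higher than Tet1/2 cKO replicate 1 for Pcna, at 9567 against 9153, for Mcm2, at 5971 against 3741, and for Mcm5, at 11759 against 9250. In the other libraries Pcna had 7211 and 7264 in Ctrl and 11308 and 10087 in Tet1/2 cKO. Mcm2 had 2119 and 3412 there against 4895 and 5076, and Mcm5 had 5184 and 8043 against 10874 and 9556. Ccne1 had 3146, 1712 and 2190 in Ctrl and 2269, 3808 and 3339 in Tet1/2 cKO, and Tyms 2765, 1601 and 2234 against 2557, 3598 and 2832. Rrm2 had 14999, 8922 and 11474 against 15992, 17074 and 16891, with no overlap, and E2f1 2197, 1968 and 2005 against 1909, 2567 and 2157, with a small difference and wide overlap (0.10 ± 0.29 SE). The S phase average minus the mitosis average was -0.34 in Tet1/2 cKO replicate 1, the widest gap of the 12 libraries, and between -0.07 and 0.21 in the others.

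Neither single deletion changed a cell cycle gene past the threshold. In Tet1 cKO, 43 of 45 genes lay below Ctrl with a median log2 fold change of -0.24, while 51.1% of all genes tested lay below 0 and 48.8% above, with a median of -0.01. In limma 0 passed, against 0.00596% of all genes tested in each direction. At an unadjusted p under 0.05 there were 0 as well, against 1.09% of all genes tested as higher and 1.19% as lower. Mcm7 had normalized counts of 12059, 5504 and 8182 in Ctrl and of 4017, 8407 and 6857 in Tet1 cKO (-0.41 ± 0.40 SE), and Gins2, the partner of Gins1, 753, 381 and 458 against 244, 573 and 418 (-0.39 ± 0.43 SE). Kif20a, a kinesin of cytokinesis, had 4306, 1506 and 2224 against 1229, 2513 and 1924 (-0.43 ± 0.46 SE). Ccnb1 had 1400, 3073 and 2339 in Tet1 cKO (-0.40 ± 0.37 SE). In these 4 genes Tet1 cKO replicate 1 was the lowest library of both groups, and Ctrl replicate 1 the highest. The count below Ctrl rests on 2 libraries, since it was 30 of 45 without Tet1 cKO replicate 1 and 32 without Ctrl replicate 1. All 45 genes overlapped between Tet1 cKO and Ctrl, whereas the groups did not overlap for 4.28% of all genes tested as higher and 3.54% as lower.

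In Tet2 cKO, 43 of 45 genes lay below Ctrl as well, with a median of -0.28 against -0.01 for all genes tested, of which 51.7% lay below 0 and 48.3% above. In limma 0 of 45 passed, against 0.00596% of all genes tested in each direction, and 0 had an unadjusted p under 0.05, against 0.656% as higher and 1.54% as lower. All 45 overlapped between Tet2 cKO and Ctrl, while 2.54% of all genes tested were higher and 3.43% lower without overlap. The direction depended on a single library, since without Tet2 cKO replicate 1, 41 of the 45 genes lay above 0, and without Ctrl replicate 1 there were 13. Cenpa had normalized counts of 4402, 3414 and 3926 in Ctrl and of 1347, 4407 and 3146 in Tet2 cKO (-0.55 ± 0.38 SE), and Birc5 had 3130, 8405 and 5574 (-0.42 ± 0.31 SE). E2f8 had 1946, 5696 and 4057 and Cdc6 1551, 3824 and 3316 in Tet2 cKO, each with -0.34 ± 0.35 (SE), and their log2 fold changes were 0.09 and 0.06 without replicate 1. For Mki67 the 3 libraries had 21094, 66638 and 51209, for Top2a 9756, 26167 and 22946, and for Pcna 4119, 9291 and 7142. In every gene named here Tet2 cKO replicate 1 was the lowest of the group. edgeR and DESeq2 gave 0 of the 45 past the adjusted threshold and 0 at an unadjusted p under 0.05 for either single deletion, with Tet1 cKO replicate 3 left out.

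The other S phase genes of the single deletions spanned similar ranges. Pcna had 5340, 8300 and 7388 in Tet1 cKO, and Mcm2 had 1701, 3939 and 3120 in Tet1 cKO and 1775, 5087 and 4591 in Tet2 cKO. Mcm5 had 4239, 8665 and 6945 in Tet1 cKO and 3297, 10196 and 9617 in Tet2 cKO. For each of these genes replicate 1 was the lowest and replicate 2 the highest library of its group. Rrm2 had 7124, 12386 and 9405 in Tet1 cKO and 5602, 15098 and 9977 in Tet2 cKO, and Tyms had 1197, 2604 and 1719 in Tet1 cKO and 1079, 2585 and 2100 in Tet2 cKO. Ccne1 had 1467, 2709 and 2119 in Tet1 cKO and 1193, 2801 and 2041 in Tet2 cKO, and E2f1 had 1389, 2138 and 1881 in Tet1 cKO and 1024, 2545 and 2023 in Tet2 cKO. E2f8 and Cdc6 in Tet1 cKO had 2882, 5078 and 4360 and 2152, 3612 and 3321. In all of them replicate 1 was again the lowest of its group.

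Among mitosis genes, too, replicate 1 lay lowest in both single deletions. Mki67 had 35450, 57384 and 43928 and Top2a 15456, 24836 and 19245 in Tet1 cKO. Ccna2 had 6268, 9201 and 7083 in Tet1 cKO and 3989, 10473 and 6729 in Tet2 cKO, and Cdk1 had 3706, 6275 and 5236 in Tet1 cKO and 2650, 7053 and 5097 in Tet2 cKO. Replicate 2 was the highest library for these genes in both groups. Cdc20 had 1555, 3752 and 2731 in Tet1 cKO and 1373, 4484 and 3394 in Tet2 cKO, and Plk1 had 971, 2211 and 1813 in Tet1 cKO and 765, 2438 and 1975 in Tet2 cKO. Aurkb had 2049, 4197 and 3358 in Tet1 cKO and 1513, 4407 and 3466 in Tet2 cKO, and Foxm1 had 2153, 4136 and 3662 in Tet1 cKO and 1260, 4087 and 4152 in Tet2 cKO. Birc5 had 4660, 7483 and 6203 in Tet1 cKO and Ccnb1 1307, 3531 and 2563 in Tet2 cKO.

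Markers of other cells differed as well in Tet2 cKO replicate 1 and in the Tet1/2 cKO libraries, in directions that varied by list. In Tet2 cKO replicate 1 the neutrophil precursor list averaged -1.38 and the erythroid list -0.996 on the log2 scale relative to Ctrl, while adipocyte markers averaged 2.45 and skeletal muscle markers 2.44. Muscle markers had summed normalized counts of 2409 to 1201680 over the 12 libraries. The 8 mature neutrophil markers averaged 1.47, 0.64 and 0.27 in Tet1/2 cKO and -0.30 to 0.38 in Ctrl, and the neutrophil precursor markers 0.93, 0.37 and 0.13 against -0.33 to 0.24. Erythroid markers averaged -0.41 to 0.71 in Tet1/2 cKO and -0.38 to 0.44 in Ctrl, and B-cell precursor markers -0.83 to -0.05 against -0.22 to 0.20. Osteoblast and osteocyte markers averaged -1.20, -0.23 and -0.95 in Tet1/2 cKO and -0.11 to 0.21 in Ctrl. None of the markers in these lists passed the adjusted threshold in any of the 3 Tet comparisons, and their part in the values of the cell cycle genes was not tested. Of the 24 further replication genes and the 28 further mitosis genes, 22 and 28 lay above 0 in Tet1/2 cKO, with medians of 0.37 and 0.51. In limma 0 of them passed in any of the 3 comparisons, and 1 of each list had an unadjusted p under 0.05 in Tet1/2 cKO and 0 in the others.

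Peak lists of 5hmC from hMeDIP-seq, in which DNA fragments with 5hmC are enriched by an antibody, were called by the authors on pooled replicates, so there is 1 list per condition and no test. They covered femurs of VitC+, VitC+/-, Ctrl and Tet1/2 cKO mice and MC3T3-E1 cells, a line of calvarial preosteoblasts of C57BL/6 mice, cultured for 28 days with VitC at 50 µg/ml (VitC+) or without (VitC-). Within 1 kb on each side of the start site, which is the 5′ end of the gene in the RPKM files with the strand of the GENCODE annotation, the share of S phase and of mitosis genes with a peak was below that of the 11400 tested genes with a strand in each of the 6 lists. In femurs, 3 of 20 S phase and 7 of 25 mitosis genes had a peak in VitC+, against 36.1% of all genes, and 3 and 5 in VitC+/-, against 31.2%. A peak was present in Ctrl at 7 S phase and 10 mitosis genes, against 55.3% of all genes, and in Tet1/2 cKO at 1 and 6, against 37.1%. In MC3T3-E1 cells the numbers were 8 and 12 with VitC, against 56.0%, and 0 and 4 without, against 21.6%. The lists hold 371568 peaks for VitC+, 399599 for VitC+/-, 259326 for Ctrl and 146626 for Tet1/2 cKO, and how much was called was not matched between the lists. With a fraction of at least 0.5 of a peak required to lie inside the window, the shares of mitosis genes and of all genes were close in Ctrl (28.0% and 28.1%), in Tet1/2 cKO (20.0% and 21.1%) and in MC3T3-E1 cells with VitC (40% and 40.1%), and S phase genes with a peak in Ctrl went from 7 to 1. With 5 kb on each side, both classes were again below all genes in each of the 6 lists. The closest were S phase genes in Ctrl (90.0% against 90.8%) and mitosis genes in VitC+/- (72.0% against 74.3%).

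Start sites with a peak in both femur lists of the VitC experiment were those of Rrm1, Ccnb2, Espl1, Kif11 and Prc1. Rrm1 had 479 bp under peaks in VitC+ and 580 bp in VitC+/-, and Ccnb2, cyclin B2, had 605 and 518 bp, each of a window of 2 kb. A peak was in the VitC+ list only at Cdc6, Mcm6, Bub1, Ccnb1 and Mki67, and in the VitC+/- list only at Rrm2, Tyms and Cenpe. These 5 and 3 genes are 11.1% and 6.67% of the 45, against 8.02% and 3.08% of all genes. Neither Ccne1, Cdt1 and E2f8 nor Gins1 and Top2a, named above for their RNA levels, had a peak at the start site in either list. In the Tet experiment 7 start sites had a peak in both lists and 10 in Ctrl only, among them Ccne1, Cdc6, Cdc45, Mcm6, Rrm1 and Tk1, and 0 in Tet1/2 cKO only. A peak in Ctrl only was found at 22.2% of the 45 genes and 19.9% of all genes, which are near each other, and one in Tet1/2 cKO only at 1.78% of all genes. Mcm7, Top2a and Mki67 were among those with a peak in both, with 361, 613 and 389 bp covered in Ctrl and 386, 428 and 325 bp in Tet1/2 cKO.

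Over the gene bodies, 26 of the 45 genes had 5hmC peaks in VitC+ femurs and 27 in VitC+/-, against 73.5% and 70.9% of all genes. The share of the gene body under peaks was larger in VitC+ for 14 genes and larger in VitC+/- for 14, while it was larger in VitC+ for 56.2% and in VitC+/- for 19.1% of all genes. Between Ctrl and Tet1/2 cKO it was larger in Ctrl for 36 of the 45 and in Tet1/2 cKO for 1, against 88.1% and 1.55% of all genes. Gene body peaks were present at 37 of the 45 genes in Ctrl and 19 in Tet1/2 cKO, against 89.7% and 74.7% of all genes. They were in Ctrl only at 18 genes, 40% of the 45, against 15.3% of all genes. By class these were 5 S phase genes (25%) and 13 mitosis genes (52%), and the lists were not matched for how much was called. The 45 genes are shorter than most, with a median length of 14.1 kb for S phase and 16.3 kb for mitosis against 20.7 kb for all, and a shorter gene has less room for a peak.

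Peaks of marks of silent chromatin in MC3T3-E1 cells were few at these genes. The 28 days given above belong to the 5hmC lists, and the paper describes a shorter VitC treatment for the cells of these marks. No peak of H3K27me3, the mark of Polycomb, lay within 1 kb of a start site or in a gene body of any of the 45 genes, with or without VitC, while 8.77% of all genes had a peak at the start site with VitC and 11.3% without, and 12.7% and 14.3% had one in the gene body. Within 5 kb on each side, 6 and 7 of the 45 had one, against 25.9% and 28.9%. H3K9me3, the mark of heterochromatin, had 0 start site peaks at the 45 genes, against 1.42% of all genes with VitC and 1.55% without. Its gene body peaks lay in Bub1b, Cdc45 and Kif20a without VitC and in Kif20a with VitC, which is 3 and 1 of the 45, against 21.9% and 15.9% of all genes.

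**Figure D5:**
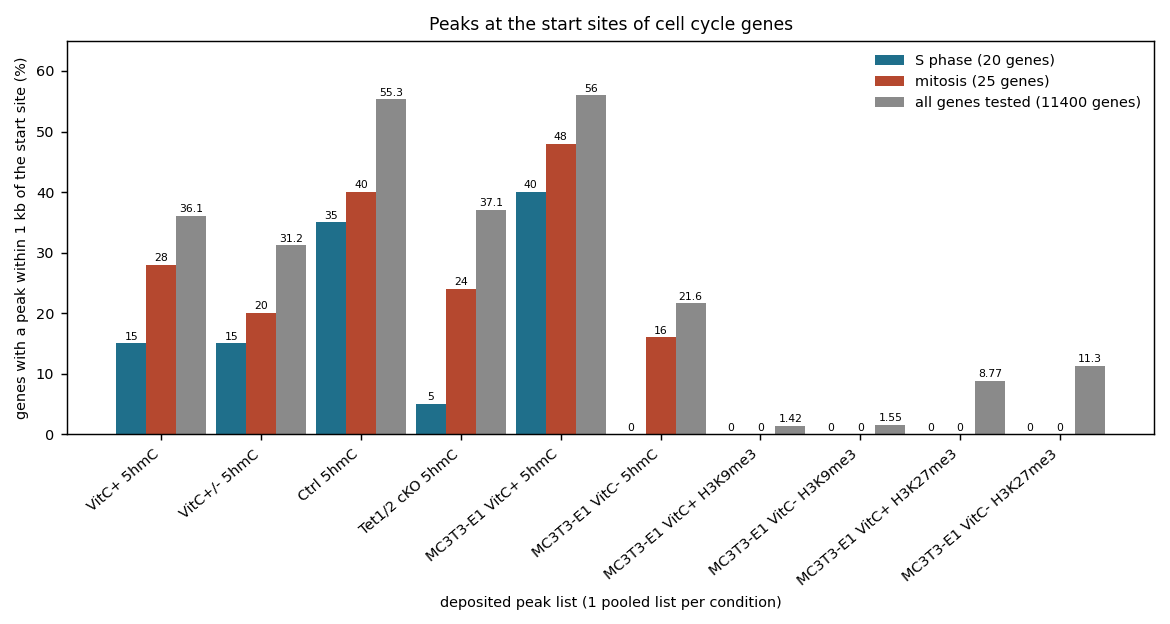
Bars give the percentage of S phase genes, mitosis genes and all genes tested that have a peak within 1 kb of the start site in each of the 10 pooled peak lists, with no replicates and so no error bars. The grey bar of all genes is the tallest in every list, 36.1% in VitC+ femurs against 15% and 28%, and both H3K27me3 lists have no peak at the 45 genes.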

How the data were processed

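RNA-seq of mouse femurs was measured in 9 libraries of the VitC experiment and 12 of the Tet experiment. For the former, the authors deposited RPKM values per gene after alignment by STAR 2.6.0b-1 (build mm10). For the latter they counted with featureCounts 1.6.3 and deposited a signal of counts per gene divided by DESeq2 size factors. Peak lists of hMeDIP-seq and ChIP-seq came from BWA 0.7.15.1 and MACS2, run by the authors on the pooled replicates of a condition, and were deposited with a fold enrichment and a -log10 q per peak. Columns of per-sample values that no label matched numbered 0.

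RPKM entries that shared a name (69 of 23358) were removed. RPKM values were scaled by median-of-ratios factors (0.746 to 1.11), kept at 1 or more in at least 3 libraries, and tested as log2(RPKM + 0.5) with limma 3.58.1 in R 4.3.3 with a trended variance shared by all groups. Since the values were RPKM, no count model was the main test. Normalized counts of 10 or more in at least 3 libraries were tested likewise as log2(count + 1). The Benjamini-Hochberg threshold was 0.05 over all genes tested. Whole reads were recovered from the normalized counts for edgeR 4.0.16 and DESeq2 1.42.0 as alternatives, without Tet1 cKO replicate 3, and read depth was derived from the low values (tolerance 0.03 reads). Depth was 7572842 to 47336779 reads (VitC) and 28597536 to 49788434 (Tet), and limits the precision of low values. Other alternatives were scaling, filter, pseudocount, the samples in the fit, the trend, a replicate block, leaving out each library and, for peaks, a stricter q, a fraction of 0.5 of the peak inside the window and a wider window. Tests were checked on simulated data.

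The genes, their classes and roles and the marker lists were chosen with earlier results of these data known. Values are printed in every library for Pcna, Mcm2, Mcm5, Rrm2, Tyms, Cdc6, Ccne1, E2f1, E2f8, Mki67, Top2a, Ccna2, Ccnb1, Cdk1, Cdc20, Plk1, Aurkb, Birc5 and Foxm1, and per comparison for the 2 genes of each class with the largest log2 fold change. Others were named because they passed the threshold or after their values were seen. VitC+/- libraries serve both VitC+/- comparisons, and Ctrl libraries all 3 Tet comparisons. Inputs were not used here.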

Additional observations from a re-analysis of the deposited data

How the results depend on the processing

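Between VitC+/- and VitC+, 2 of the 45 genes passed as reported, 0 without scaling, 1 without the filter on low values, 1 with only the 2 groups, 1 without the trend, 0 to 3 with 1 library left out and 0 without both WT replicate 3 and VitC+ replicate 1, an alternative chosen after seeing the data. Between VitC+/- and WT, 18 passed as reported, 1 without scaling, 2 to 30 with 1 library left out and 2 without both. Without scaling, without both, and without WT replicate 3 or VitC+/- replicate 3, the share that fell was below that of all genes tested. Between WT and VitC+, 0 passed as reported, and 0 to 15 with 1 library left out. Without scaling the median of all genes moved to 0.13 between VitC+/- and VitC+ and to 0.12 between WT and VitC+, and 36 genes then lay above 0 and 9 below in the former. Libraries with the same replicate number did not deviate together throughout (correlations of -0.19 to 0.47 over 9 pairs and -0.57 to 0.53 over 18). Those with different numbers had correlations of -0.37 to 0.42 and -0.62 to 0.55. Pairing by number was thus neither shown nor excluded, and the main fit leaves it out. With a replicate block, 3, 22 and 5 of the 45 passed in the 3 comparisons of the VitC experiment and 0 in the Tet comparisons. The 3 were higher in VitC+/-, the 22 lower in VitC+/- and the 5 higher in WT. In the same directions, 907, 2222 and 169 of the 12571 genes tested passed. In Tet2 cKO, leaving out 1 library moved Cdc6 between -0.593 and 0.0572 and E2f8 between -0.684 and 0.0907, with the signs turned by leaving out Tet2 cKO replicate 1. The cause of these shifts was not tested. With only the Tet1/2 cKO and Ctrl libraries in the fit, 19 of the 45 had an unadjusted p under 0.05 and 0 passed. Of 60 counts of start site peaks under other settings 23 moved, among them Tet1/2 cKO mitosis genes from 6 to 3 at -log10 q of at least 5. For the Tet table, no further scaling is the fit as reported.

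Over all genes, 691 rose and 1001 fell between VitC+/- and VitC+, 472 and 405 without scaling, 151 to 547 and 327 to 803 with 1 of these libraries left out and 85 and 174 without both. Between VitC+/- and WT, 1923 rose and 1978 fell, and 809 and 845 without both. Between WT and VitC+, 0 passed, with 169 and 611 under the block and 71 and 594 without WT replicate 1. DESeq2 called 3 and 10, 4 and 11, and 1 and 10 genes in Tet1, Tet2 and Tet1/2 cKO, where limma called 1 and 1, 1 and 1, and 0 and 0. Depth limits single values of low genes most in WT replicate 1.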
